A study of Mus musculus with 5 samples.

Results

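Fibroblasts with UMIs of Pi16, Dpp4 or Sema3c were taken from the hearts of mice that lack the checkpoint receptor gene Pdcd1 and carry either 2 or 1 intact copies of Ctla4. A UMI is a unique molecular identifier, which counts 1 captured RNA molecule. A barcode, meaning a droplet called as a cell, became a member when mitochondrial genes held at most 10% of its UMIs and its raw counts met 5 limits. Dcn, Col1a1 and Pdgfra together had to reach 5 UMIs, and Pi16, Dpp4 and Sema3c together 2 UMIs. Postn could not exceed 2 UMIs, Cxcl9, Cxcl10 and Gbp4 together had to stay under 5, and Pecam1, Cdh5 and Ptprc together could not exceed 1. The rule found 6264 members among 47319 barcodes, which is 13.2% of all barcodes.

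Hearts were minced and digested with collagenase I, DNase I and hyaluronidase. Living nucleated cells (DRAQ5-positive, DAPI-negative) were sorted, and pooled hearts gave 5 droplet libraries sequenced from the 5-prime end. Replicates 1 and 2 are controls (Ctla4+/+Pdcd1-/-, 4 mice in all), and replicates 3, 4 and 5 are disease libraries (Ctla4+/-Pdcd1-/-, 10 mice in all), a genotype used as a model of myocarditis under checkpoint inhibitors. All mice lack Pdcd1, so no library comes from a wild-type heart, and the only labelled difference is the loss of 1 copy of Ctla4. The design text gives these genotypes for all libraries, whereas the genotype and sorting labels of single libraries count upward in the name of the gene or dye, and the design text was followed. Neither age, sex, collection time nor the mice in each library are given, so p-values measure only the spread between pooled libraries. The members were 1959 and 826 barcodes in control against 1234, 995 and 1250 in disease, with median depths of 6792, 6952, 5755, 5398 and 6184 UMIs. Their summed counts ranged from 5612676 to 13692902 UMIs per library. Of the members, 21 carried a barcode sequence found in another library, against 1208 of all barcodes. Ctla4 reached 9.0 CPM or less in the members and Pdcd1 10.6 CPM or less, so these sums are no check of the genotype labels.

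Pi16 encodes a secreted peptidase inhibitor. Together with the membrane protease Dpp4 it is known to mark fibroblasts of the connective tissue sheath around vessels, the adventitia, in many organs. Such cells are described as a progenitor-like stromal pool that also expresses Ly6a and Cd34. They lie apart from the interstitial fibroblasts among the muscle fibres, which express genes such as Col15a1 and are linked to the capillary bed. The fibroblasts of the heart lay down collagen and elastic matrix and release chemokines that draw and hold leukocytes.

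The name adventitial proved too narrow for what the rule takes. Members made up 67.7% of the 9250 barcodes that met every other limit, the fibroblast gate, and from 63.8 to 71.6% of it in single libraries. Pi16 alone decided membership for most cells: 98.9% of members had a Pi16 UMI, 96.5% reached 2 UMIs with Pi16 alone, and Pi16 held 93.0% of the UMIs of the 3 genes. Dpp4 was seen in 17.0% of members, Sema3c in 36.0%, and all 3 genes in 10.2%. The members are therefore called Pi16-positive fibroblasts here. Their Pi16 level in controls was 2433 and 2867 CPM (UMIs of the gene per 1000000 UMIs, here on library sizes scaled by the trimmed mean of M values), against 2791, 2598 and 3155 CPM in disease. Dpp4 stood at 43.4 and 44.7 against 57.6, 46.97 and 45.6 CPM, and Sema3c at 153 and 166 against 167, 146 and 163 CPM. These 3 genes chose the cells, so their levels are a description. The 3 genes were also seen outside fibroblasts. Among endothelial cells, 4.42 to 6.04% of barcodes had at least 2 UMIs of the 3 genes, at median depths of 2649 to 3505.5 UMIs. Among macrophages 0.246 to 2.21% did, at 5169 to 7020 UMIs. Pi16 stood at 57.7 to 77.5 CPM in the endothelial and 9.27 to 22.1 CPM in the macrophage barcodes, and the source of these UMIs was not tested.

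Mfap5, a microfibril protein, and Cd248, the glycoprotein endosialin, are the other markers attached to the name. In the members' raw sums Mfap5 stood at 1483, 1595, 1923, 2235 and 2235 CPM in replicates 1 to 5 and was seen in 91.3 to 96.2% of cells. Cd248 stood at 374, 390, 139, 177 and 164 CPM and was seen in 33.1 to 56.1% of cells. General fibroblast genes were high, with Tcf21 at 594 to 689 CPM and Lum at 2168 to 2662 CPM. The actin-severing protein gene Gsn stood apart by library, at 41072, 42591, 38555, 10246 and 19762 CPM, and was lowest in disease replicates 4 and 5. Markers of other cell types were present at lower sums: 8 endothelial markers summed to 31.8 to 68.7 CPM and 8 cardiomyocyte markers to 36.5 to 70.3 CPM. The 8 macrophage markers summed to 174 to 379 CPM, and 10 mesothelial markers to 9.1 to 143 CPM. Mural markers (8 genes) summed to 156 to 263 CPM and valve fibroblast markers (6 genes) to 261 to 414 CPM.

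No gap separated cells at the threshold. Across the 5 libraries, Mfap5 stood at 604 to 1136 CPM in the 699 members with exactly 2 UMIs of the 3 genes and at 543 to 889 CPM in fibroblasts just outside, with 1 UMI. In members with over 20 UMIs it stood at 2489 to 3763 CPM. Cd248 likewise stood at 37.4 to 88.9 CPM at 2 UMIs, 30.8 to 74.4 CPM at 1 UMI and 310 to 783 CPM above 20 UMIs.

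Levels of several genes changed with the Pi16 count of a cell. Averages over bins cannot tell a gradient from a changing mix of cell classes, and which it is was not tested. To set cells of unequal depth side by side, every barcode was thinned to 2000 UMIs before the gate without the Pi16 limit was applied, and fibroblasts were binned by their Pi16 UMIs. Cells with 0 Pi16 UMIs made up 28.7 to 35.9% of fibroblasts per library, and cells with 16 or more made up 3.54 to 6.41%. Mfap5 rose with every bin in all 5 libraries, from 507 and 605 CPM at 0 to 3469 and 3572 CPM at 16 or more in the control libraries. In the disease libraries it went from 669, 912 and 788 CPM to 5133, 4812 and 5016 CPM. Tmem100, a membrane protein gene of the BMP pathway, also rose with every bin in all 5 libraries, with 31.8 to 64.8 times its level at 0. The top bin held 12.7 to 32.4 times the Cd248 level of the 0 bin and 6.0 to 11.2 times that of Cd55, a complement decay-accelerating receptor. Dpp4 stood 10.6 to 20.7 times and Sema3c 16.6 to 33.1 times as high there as in the 0 bin.

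Several genes of the interstitial list stood lower in the top bin than in the 0 bin, though not by a fall in every step. Mgp, the matrix Gla protein that inhibits calcification, stood at 8299, 8645, 12982, 10329 and 10317 CPM in the 0 bin of replicates 1 to 5. In the top bin it stood at 2101, 1877, 2046, 1994 and 1606 CPM. The top bin held 0.160 to 0.272 of the 0-bin level of G0s2, a lipase inhibitor, and 0.027 to 0.186 of that of Inmt, a methyltransferase. It held 0.108 to 0.237 of that of Hsd11b1, which regenerates active glucocorticoid, and 0.375 to 0.523 of that of Col15a1. G0s2 fell with every bin in 4 libraries, Inmt in 3, Hsd11b1 in 2, Mgp in 1 and Col15a1 in 0. In every library Col15a1 was higher at 1 Pi16 UMI than at 0, as in control replicate 1 (989 against 911 CPM). Other genes of that list hardly moved: Tcf21, the fibroblast lineage factor, stood at 1.05 to 1.41 and Htra3, a secreted serine protease, at 0.806 to 1.13 times its 0-bin level. The binning used Pi16 UMIs of the same cells, so these ratios carry no test.

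**Figure D1:**
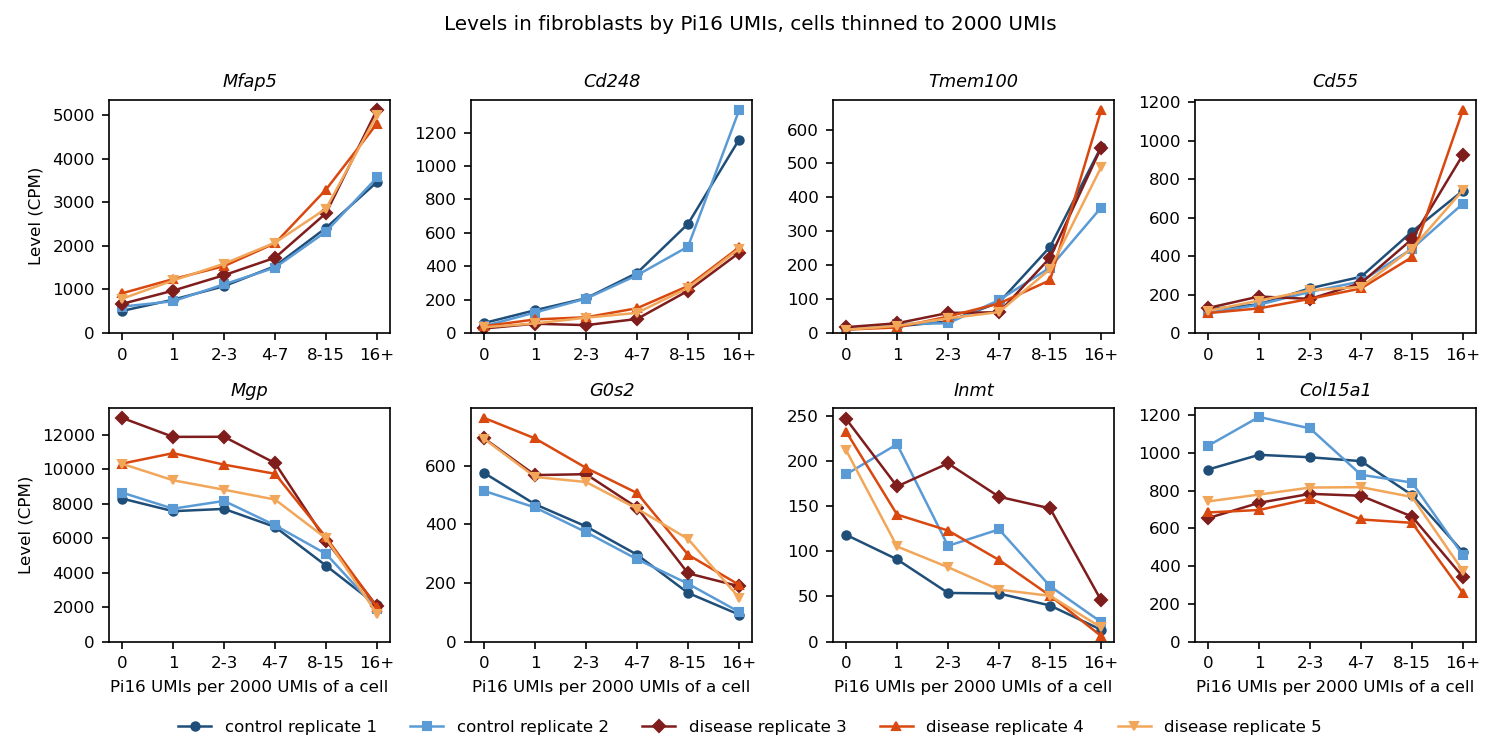
Level in CPM (vertical axis, linear from 0) of 8 genes in fibroblasts grouped by the Pi16 UMIs that a cell holds after thinning to 2000 UMIs (horizontal axis). Each line is 1 library. Mfap5, Cd248, Tmem100 and Cd55 are highest at 16 or more Pi16 UMIs in all 5 libraries, and Mgp, G0s2, Inmt and Col15a1 are lowest there.

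The presence of Dpp4 or Sema3c went with the same direction. Within members of the thinned set, cells with Dpp4 or Sema3c (189 to 458 per library) were set beside cells with Pi16 alone (464 to 1090 per library). Of the 35 genes of the adventitial list at 5 CPM or more, 34 were higher with Dpp4 or Sema3c in all 5 libraries, and 17 of 21 interstitial genes were lower in all 5. Over all 10166 genes at that level, 1355 were higher and 690 lower in all 5. Tmem100 stood 3.06 to 4.21 times as high, Efhd1 2.46 to 3.49 times, Cd248 1.96 to 2.58 times and Mfap5 1.29 to 1.61 times. Cells with Dpp4 or Sema3c can also hold more Pi16, which was not equalised.

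Pi16-positive fibroblasts were next set against the 1900 fibroblasts of the same gate without a UMI of the 3 genes, called other fibroblasts. The counts of each class were summed per library and fitted with edgeR, with the library as a block and without the 13 genes of the rule. The split was made on Pi16, Dpp4 and Sema3c in the same cells, so the calls describe which genes went along with those 3. Other fibroblasts were shallower, with median depths of 4340, 4270, 4003.5, 3435 and 3957 UMIs in replicates 1 to 5. At an adjusted p under 0.05, 1885 of 11417 genes (16.5%) were higher in members and 1726 (15.1%) were lower, with a median log2 difference of 0.01 over all genes.

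Genes of the adventitial list were higher nearly throughout. All 35 tested of 38 lay above 0, 34 were called, and the median log2 difference was 1.51. Igfbp5 was not called. Tmem100 stood at 104, 104, 118, 105 and 111 CPM in members and at 5.13, 7.03, 8.17, 0 and 5.46 CPM in other fibroblasts of replicates 1 to 5. The classes did not overlap in any library, and the log2 difference was 4.36 ± 0.17 (SE). Efhd1, a mitochondrial calcium-binding protein, differed by 3.53 ± 0.13 and Cd248 by 3.38 ± 0.10. Limch1, an actomyosin regulator, differed by 2.81 ± 0.14. Ackr3, a scavenging receptor that takes up the chemokine CXCL12, stood at 554 to 1043 CPM in members and 136 to 233 CPM in other fibroblasts, a difference of 2.25 ± 0.06. The stem and progenitor surface markers Ly6a, Ly6c1 and Cd34 differed by 1.6 ± 0.11, 1.92 ± 0.07 and 1.19 ± 0.06. This list names known companions of Pi16, so its direction is what the name implies and no separate result.

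Beyond that list, the largest rises among genes that the naming rule covers were in Adgrd1, an adhesion G protein-coupled receptor (2.77 ± 0.14), C7, a terminal complement component (2.60 ± 0.14), Hspb8, a small heat shock protein (2.60 ± 0.16), Nbl1, a BMP antagonist (2.48 ± 0.10), and Efemp1, the matrix protein fibulin-3 (2.40 ± 0.10). Nbl1 in members stood at 77.0, 306, 68.3, 68.4 and 61.1 CPM, so that control replicate 2 lay far above the other libraries. It did so in other fibroblasts too, at 59.0 CPM against 10.9 to 13.2 CPM.

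Matrix genes moved in both directions in every subgroup, beside 16.5% higher and 15.1% lower over all genes. Of the 22 elastic fibre and microfibril genes 10 were higher and 6 lower. Emilin2 (2.41 ± 0.13), Mfap5 (1.85 ± 0.06), Fbln2 (1.24 ± 0.06), Fbn1 (0.95 ± 0.05) and Mfap4 (0.86 ± 0.09) were higher. Fbn2 (-1.38 ± 0.18) and the crosslinking enzyme gene Lox (-0.80 ± 0.11) were lower. Of 16 proteoglycan and hyaluronan genes, 10 were higher and 4 lower. Both hyaluronan synthases of the list were higher, Has2 by 1.93 ± 0.15 and Has1 by 1.51 ± 0.16, as was the large proteoglycan gene Vcan, by 1.1 ± 0.06. Of 18 collagen genes 5 were higher and 4 lower. Col6a6 (-1.07 ± 0.08) moved most, Col3a1 differed by -0.11 ± 0.05 (edgeR adjusted p = 0.139), and Col15a1 by 0.03 ± 0.05 (edgeR adjusted p = 0.705). For cells with at least 8 UMIs of the 3 genes per 2000, the Col15a1 difference was -0.40.

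Lower genes lay in several lists, beside 15.1% lower and 16.5% higher over all genes. Of 24 immediate early genes 12 were lower and 5 higher, of 26 clock and glucocorticoid genes 11 and 2, and of 14 adipogenic and lipid genes 8 and 2. Of 21 interstitial genes 4 were higher and 11 lower: Inmt differed by -1.27 ± 0.10, G0s2 by -0.73 ± 0.05 and Hsd11b1 by -0.72 ± 0.07. Igfbp3, which binds insulin-like growth factors, fell most of all genes that the naming rule covers. It stood at 60.0, 94.1, 38.2, 33.1 and 34.1 CPM in members and at 590, 1010, 569, 208 and 453 CPM in other fibroblasts (log2 difference -3.43 ± 0.10). Fst, the activin inhibitor follistatin, differed by -2.02 ± 0.14 and Sfrp2, a secreted Wnt modulator, by -1.85 ± 0.10. Of 22 growth and guidance factors, 7 were higher and 12 lower, with a median of -0.48. Fgf18 (1.22 ± 0.24) and Fgf2 (0.70 ± 0.15) were higher, whereas Hgf (-1.25 ± 0.26), Fgf10 (-0.97 ± 0.30) and Slit3 (-0.69 ± 0.08) were lower. The Fgf10 call was lost without disease replicate 3 or 4, with edgeR adjusted p up to 0.102. Of 22 cytokine and chemokine genes, 2 were higher and 10 lower. These included Cxcl12, which holds leukocytes and progenitors in stroma (-0.77 ± 0.06), Cxcl5 (-1.86 ± 0.12) and the leukocyte adhesion gene Vcam1 (-0.69 ± 0.05).

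Genes induced by interferon-gamma, a cytokine of T cells, were mostly lower in members. Of 41 tested, 29 were lower and 2 higher, beside 15.1% and 16.5% of all genes, with a median of -0.42. Iigp1, a GTPase of cell-autonomous defence, stood at 299, 129, 130, 740 and 233 CPM in members and 524, 301, 295, 1129 and 407 CPM in other fibroblasts (-0.90 ± 0.07). Class II antigen presentation genes moved more, with Cd74 at -1.26 ± 0.16 and H2-Aa at -1.34 ± 0.17. The 8 macrophage markers summed to 554 to 1162 CPM in other fibroblasts and 174 to 379 CPM in members, and 7 T cell markers to 9.9 to 314 against 6.53 to 153 CPM. Apoe (-1.93 ± 0.07), which macrophages also express, and the macrophage gene C1qc (-1.65 ± 0.11) differed the same way. The part of macrophage and T cell RNA in the differences of Cd74, H2-Aa, Apoe and C1qc was not tested. The rule limits Cxcl9, Cxcl10 and Gbp4, and Pecam1, Cdh5 and Ptprc, by raw counts. Members were deeper, so these limits cut at a lower relative level in them than in other fibroblasts. The part of this in the interferon-gamma, macrophage and T cell differences was not tested. The summed level of 10 mesothelial markers was higher in members (9.1 to 143 against 0.777 to 20.4 CPM), though Wt1 was lower in members in control replicate 2 and disease replicates 4 and 5, and Msln and Upk3b were seen in at most 1.2% of members in any library.

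**Figure D2:**
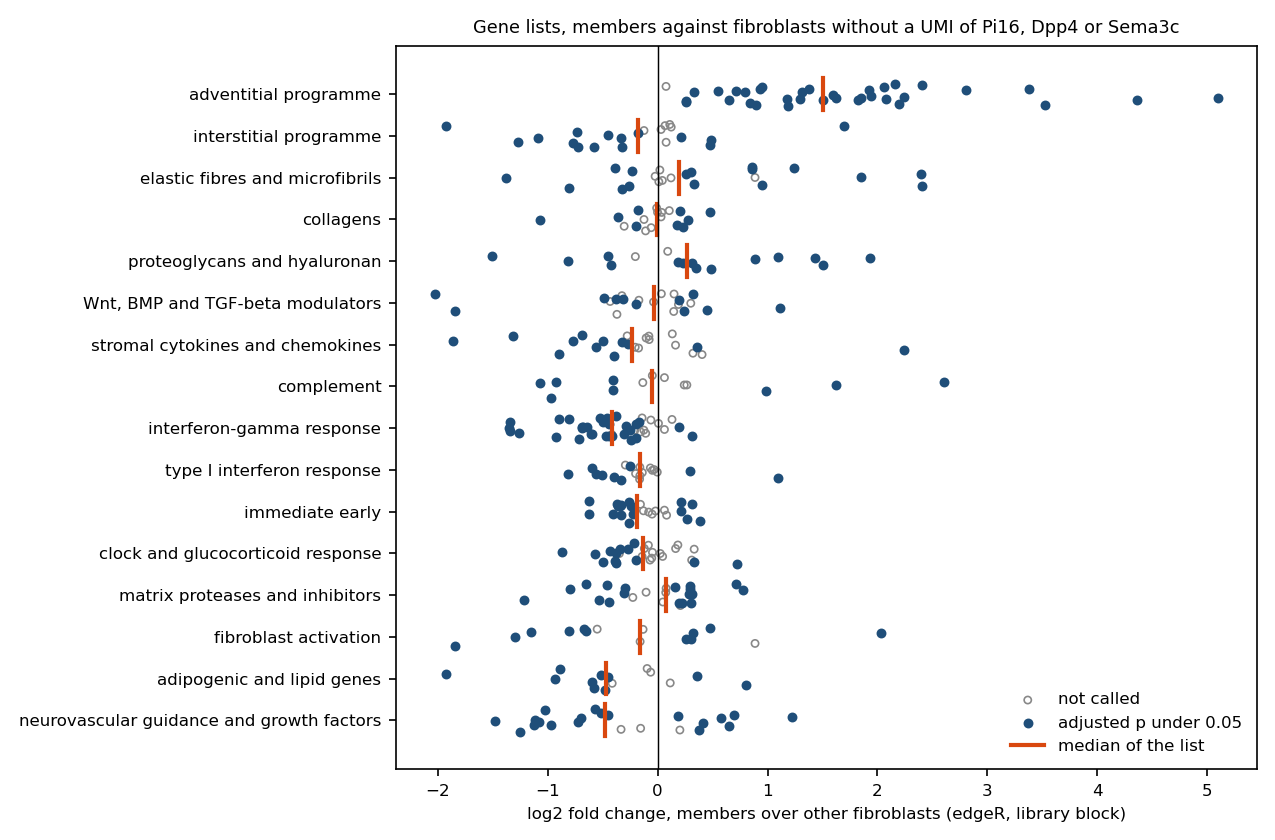
Log2 difference between members and other fibroblasts (horizontal axis) for each gene of 16 lists (rows, with vertical jitter only to separate points). Filled points have an edgeR adjusted p under 0.05, open points do not, and bars mark medians. The adventitial list has a median of 1.51 and lies to the right of 0 throughout, and the interferon-gamma list has a median of -0.42.

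The share of fibroblasts that were Pi16-positive overlapped between the genotypes at full depth. Members made up 66.2 and 63.8% of the fibroblast gate in control against 71.1, 65.7 and 71.6% in disease. Disease replicate 4 lay between the control libraries. The means were 65 ± 1.65% (SD, n = 2) and 69.5 ± 3.3% (SD, n = 3), a difference of 4.48 percentage points (two-sided exact permutation test over 10 splits, p = 0.3, where 0.1 is the smallest possible). After thinning to 2000 UMIs the shares were 48.0 and 49.7% against 56.3, 51.2 and 56.5%, and the groups did not overlap (two-sided exact permutation p = 0.2, n = 2 and 3). Cells with at least 8 UMIs of the 3 genes per 2000 made up 12.47 and 14.92% against 16.34, 14.93 and 17.92%, where the groups did not overlap by a narrow margin (two-sided exact permutation p = 0.2, n = 2 and 3). Over all barcodes under the mitochondrial limit the difference turned, with 21.1 and 14.8% against 21.2, 9.99 and 16.3%, or -2.14 percentage points (exact permutation p = 0.7, n = 2 and 3). It ranged from -5.31 without control replicate 2 to 1.04 without control replicate 1, so its sign rested on single libraries.

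The limits of the rule removed more Pi16-positive fibroblasts from some disease libraries than from others. The base was fibroblasts with at least 2 UMIs of the 3 genes, before the limits on Postn and on Cxcl9, Cxcl10 and Gbp4. Of these, the limit on Cxcl9, Cxcl10 and Gbp4 left out 3.62 and 1.15% in control against 0.525, 20.7 and 7.44% in disease. Disease replicate 4 lost most, and disease replicate 3 lost fewer than either control library. The limit on Postn, a matricellular protein of activated fibroblasts, left out 5.8 and 4.24% against 7.05, 8.93 and 14.6%, where the groups did not overlap (two-sided exact permutation p = 0.2, n = 2 and 3). With both limits lifted in the denominator alone, members made up 61.0 and 61.1% against 66.1, 49.6 and 60.3%. Every comparison of genotypes below is thus of cells already low in Postn and in Cxcl9, Cxcl10 and Gbp4.

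**Figure D3:**
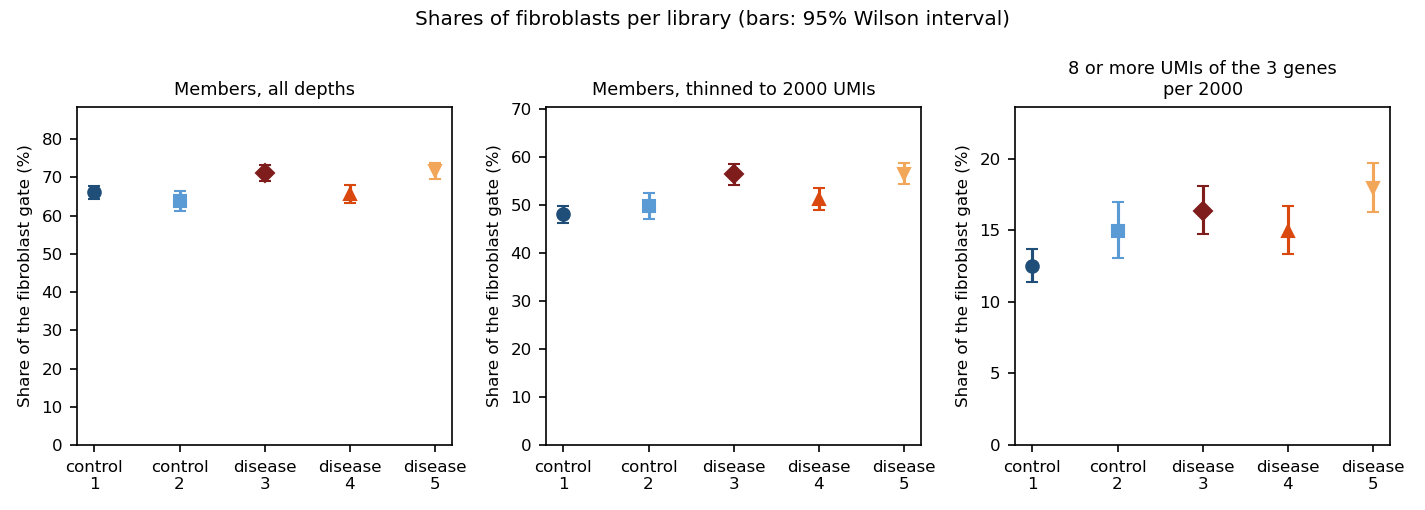
Share of the fibroblast gate in % (vertical axis from 0) in each library for members at full depth, members after thinning to 2000 UMIs, and cells with at least 8 UMIs of the 3 genes per 2000. Bars are 95% Wilson intervals, which cover counting error only. At full depth disease replicate 4 (65.7%) lies between the control libraries (66.2 and 63.8%).

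Within Pi16-positive fibroblasts, loss of 1 Ctla4 copy went with lower counts of many genes and higher counts of few. Of 12515 genes tested, 43 (0.344%) were higher and 1590 (12.7%) lower in disease at an edgeR adjusted p under 0.05. Groups did not overlap for 48.5% of all genes. The number higher was 3 without control replicate 1, 4 without control replicate 2, 74 without disease replicate 3, 44 without disease replicate 4 and 10 without disease replicate 5, so most single rises below rest on all libraries. The number lower was 1090, 808, 1558, 1604 and 944 in the same order. Genes called lower differed in base composition: the first 300 transcript bases held a median of 67.7% G and C in them, 58.0% in genes called higher and 59.3% in the rest. Across the 6626 genes over 4 log2 CPM, the Spearman correlation of this share with the log2 fold change was -0.43, and genes are not independent replicates. With a trend on this share removed, 171 genes were higher and 1192 lower, of which 22 and 1156 were among the calls above. Libraries, preparation and genotype cannot be told apart here.

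The 10 largest named falls included genes of basic cell functions. The naming rule kept only genes without overlap between the groups. H2afj, a histone H2A variant, stood at 128 and 123 CPM in control and 3.55, 1.53 and 3.31 CPM in disease (edgeR adjusted p = 0.00033). Its fold change on the log2 scale was -5.45 ± 0.28 (SE). Snrpf, a splicing factor subunit, stood at 160 and 141 against 6.15, 3.74 and 6.5 CPM (-4.77 ± 0.23), and Cox5a, a respiratory chain subunit, at 168 and 141 against 8.74, 8.51 and 8.15 CPM (-4.19 ± 0.13). Scand1 (-4.74 ± 0.40), Nenf (-4.66 ± 0.43), the mitoribosome gene Mrps24 (-4.53 ± 0.14), Pgls of the pentose phosphate pathway (-4.40 ± 0.13) and Bola3 (-4.13 ± 0.16) were also lower. Rnaset2a (-5.04 ± 0.27) and Rnaset2b (-5.00 ± 0.34) are near-identical copies, so how reads were divided between them is uncertain. All 10 genes were also called lower in other fibroblasts, from -3.78 for Pgls to -5.27 for Scand1. In members these 10 calls held without any single library (edgeR adjusted p up to 0.015).

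Markers of the name did not move together. Cd248 stood at 387 and 396 CPM in control and 138, 169 and 164 CPM in disease libraries, with no overlap (-1.32 ± 0.12, edgeR adjusted p = 0.0015, up to 0.021 without 1 library). Mfap5 stood at 1537 and 1621 against 1905, 2134 and 2243 CPM (0.41 ± 0.11, edgeR adjusted p = 0.065), and Tmem100 at 103 and 104 against 115, 101 and 109 CPM (0.06 ± 0.11, edgeR adjusted p = 0.760). In cells with at least 8 UMIs of the 3 genes per 2000, the fold changes of Cd248, Mfap5 and Tmem100 were -1.24, 0.44 and 0.04 (edgeR adjusted p = 0.00125, 0.042 and 0.924). Of 36 tested genes of the adventitial list, 0 were called higher by edgeR (1 by DESeq2, and 4 at an unadjusted p under 0.05) and 4 lower (Cd248, Pcolce2, Dact2 and Emilin2), with a median of 0.15. The 4 are 11.1% of the list, beside 12.7% of all genes. Pcolce2, an enhancer of procollagen processing, stood at 604 and 598 against 177, 187 and 202 CPM (-1.67 ± 0.10). The Emilin2 call was lost without any 1 library (edgeR adjusted p of 0.080 to 0.271), and that of Dact2 without control replicate 2 or disease replicate 3 or 5 (up to 0.179).

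Of 21 interstitial genes, 1 was called higher and 4 lower, Cxcl12 among them, so that 23.8% were called in either direction beside 13.05% of all genes. Smoc2, a calcium-binding matrix protein, stood at 1411 and 1351 against 542, 439 and 520 CPM (-1.47 ± 0.12). Htra3 stood at 1757 and 2241 against 686, 559 and 633 CPM (-1.67 ± 0.15) and the globin gene Cygb at 1239 and 1302 against 553, 570 and 594 CPM (-1.15 ± 0.09). These 3 groups did not overlap, and the calls held without any single library (edgeR adjusted p up to 0.016). The rise of G0s2 (0.39 ± 0.09) was called only with all libraries (edgeR adjusted p of 0.058 to 0.272 without 1).

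Stromal chemokines Cxcl14 and Cxcl12 were lower. Cxcl14 stood at 545 and 546 CPM in control and 149, 82.5 and 82.9 CPM in disease libraries (-2.38 ± 0.28, edgeR adjusted p = 0.0037, up to 0.033 without 1 library). Cxcl12 stood at 222 and 226 against 95.7, 47.8 and 59.6 CPM (-1.72 ± 0.29, edgeR adjusted p = 0.013). Its call was lost without control replicate 1, control replicate 2 or disease replicate 5 (edgeR adjusted p = 0.074, 0.088 and 0.073). Csf1, the macrophage growth factor, was also lower (-0.73 ± 0.10), with an edgeR adjusted p of 0.060 without control replicate 2. In all, 0 of 24 cytokine and chemokine genes were called higher by edgeR and by DESeq2 (1 at an unadjusted p under 0.05) and 3 lower (12.5%, beside 12.7% of all genes), with a median of 0.26.

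Most called matrix and signalling genes were lower, as were most calls over all genes, of which 2.63% were higher. Fbln1, which binds fibronectin and elastic fibres, stood at 1460 and 1548 against 562, 492 and 422 CPM (-1.61 ± 0.14), and Serpine2, an inhibitor of thrombin and plasmin, at 438 and 398 against 124, 107 and 103 CPM (-1.91 ± 0.13). Cyr61, a matricellular target of YAP, stood at 1020 and 943 against 426, 262 and 347 CPM (-1.51 ± 0.21). These 3 calls held without any single library (edgeR adjusted p up to 0.049). Sfrp2 stood at 44.3 and 64.9 against 22.7, 16.5 and 15.3 CPM (-1.58 ± 0.24), with an edgeR adjusted p of 0.064 without control replicate 2 and 0.053 without disease replicate 5. Over all genes 0.344% were called higher and 12.7% lower. By list, 1 elastic fibre gene was higher and 2 lower of 22, 0 and 1 of 18 collagens (0 higher by DESeq2, 1 at an unadjusted p under 0.05), 1 and 3 of 22 Wnt, BMP and TGF-beta modulators, and 1 and 5 of 24 proteases and inhibitors. Of the 15 fibroblast activation genes tested, 0 were higher by edgeR and by DESeq2 (3 at an unadjusted p under 0.05) and 1 lower, with a median of 0.32.

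**Figure D4:**
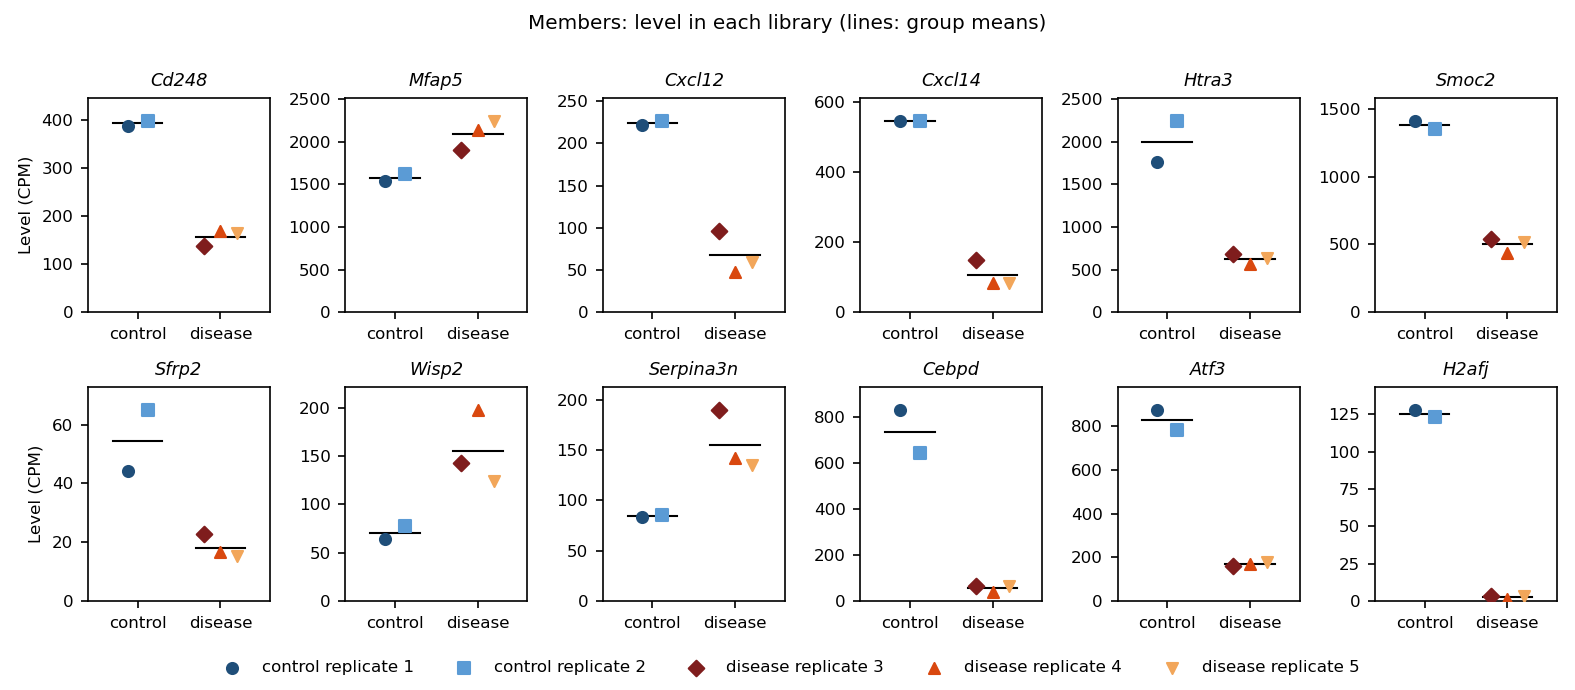
Level of 12 genes in members in CPM (vertical axes, linear from 0) in each control and disease library. Each point is 1 library and each line a group mean. Cd248, Cxcl12, Cxcl14, Htra3, Smoc2, Sfrp2, Cebpd, Atf3 and H2afj are lower in all 3 disease libraries than in either control library, and Mfap5, Wisp2 and Serpina3n are higher, though Mfap5 was not called.

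Of the 10 named genes that rose, 5 belonged to the clock and glucocorticoid list. In the clock, the activators encoded by Arntl, Clock and Npas2 bind a CACGTG element, the E-box, in genes such as Dbp, Tef, Nr1d1, Per and Cry. The PER and CRY proteins in turn repress the activators, and the product of Nr1d1 represses Arntl. Tef, which rose, and Cry1, which fell, are shown with 100 bases of promoter around that element, because they carry the same letters and moved apart. The sequences are RefSeq's on GRCm38.p6, written 5′ to 3′ in the direction of the gene, with the element in capitals. They lie at chr15:81802499-81802598 on the plus strand and chr10:85185062-85185161 on the minus strand, where the element begins 127 bases before the start of Tef and 60 before that of Cry1.
Tef: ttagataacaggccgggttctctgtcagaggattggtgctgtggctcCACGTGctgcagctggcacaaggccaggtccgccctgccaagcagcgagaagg
Cry1: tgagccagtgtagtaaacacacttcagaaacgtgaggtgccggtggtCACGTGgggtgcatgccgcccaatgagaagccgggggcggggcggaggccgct
The letters CACGTG, which read the same on both strands, stood in the 250 bases before the start of 1978 of 32851 RefSeq promoters (6.02%). They stood there in 8 of the 22 clock list genes with a promoter in that set. The first count is of promoters and the second of genes, where any promoter of a gene sufficed, so the shares are unlike measures.

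Dbp, a clock output factor, stood at 49.6 and 40.9 CPM in control and 118, 141 and 154 CPM in disease libraries (1.6 ± 0.17, edgeR adjusted p = 0.0024). Among the 10 named rises it alone kept its call without any single library (edgeR adjusted p up to 0.030). Its relatives Hlf (33.4 and 27.1 against 60.0, 62.1 and 51.1 CPM, 0.93 ± 0.15) and Tef (18.9 and 24.6 against 42.2, 37.4 and 37.1 CPM, 0.85 ± 0.16) rose too. So did Nr1d1, the repressor REV-ERB alpha (62.1 and 68.1 against 104, 117 and 106 CPM, 0.74 ± 0.12), and Tsc22d3, the glucocorticoid-induced leucine zipper (319 and 320 against 613, 480 and 612 CPM, 0.83 ± 0.14). Without control replicate 2 the edgeR adjusted p of Hlf was 0.099. Without control replicate 1 that of Tef was 0.105, that of Nr1d1 0.087 and that of Tsc22d3 0.103, and each of these 3 also lost its call without disease replicate 5 (0.080, 0.055 and 0.069). Tef also lost it without disease replicate 3 (0.055), and Nr1d1 and Tsc22d3 without control replicate 2 (0.067 and 0.119).

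Among the 5 genes of the list called lower were Arntl, Cry1 and Cebpd. Arntl, which encodes BMAL1, stood at 42.8 and 47.3 against 14.5, 13.1 and 13.1 CPM (-1.73 ± 0.12, edgeR adjusted p = 0.0006). Cry1 stood at 11.2 and 16.8 against 2.73, 2.72 and 3.31 CPM (-2.23 ± 0.25). Cebpd, a factor of the acute phase and of early fat cell differentiation, stood at 831 and 642 against 63.6, 40.0 and 64.1 CPM (-3.72 ± 0.25). These 3 groups did not overlap, and the calls held without any single library (edgeR adjusted p up to 0.021). Npas2 (-1.03 ± 0.19) and Cry2 (-0.71 ± 0.13) were lower as well. Npas2 lost its call without control replicate 2 or disease replicate 3 or 5 (edgeR adjusted p up to 0.086), and Cry2 without all but disease replicate 4 (up to 0.112). Of the 26 clock and glucocorticoid genes 5 were called higher and 5 lower, beside 0.344% and 12.7% of all genes. Per1 was not called (33.8 and 28.1 against 36.1, 43.6 and 40.4 CPM, edgeR adjusted p = 0.168). In the test of a difference between the classes, edgeR called 0 of the 26 genes. In other fibroblasts Dbp (1.88 ± 0.28), Arntl (-1.40 ± 0.28) and Cebpd (-3.50 ± 0.26) were called in the same directions. Dbp was the only gene of the list called higher there. Hlf, Tef, Nr1d1 and Tsc22d3 (0.69 ± 0.20, edgeR adjusted p = 0.073) were not called. The Arntl call was lost there without control replicate 1, control replicate 2 or disease replicate 5 (edgeR adjusted p = 0.165, 0.066 and 0.081). The labels give no hour of collection for any library.

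**Figure D5:**
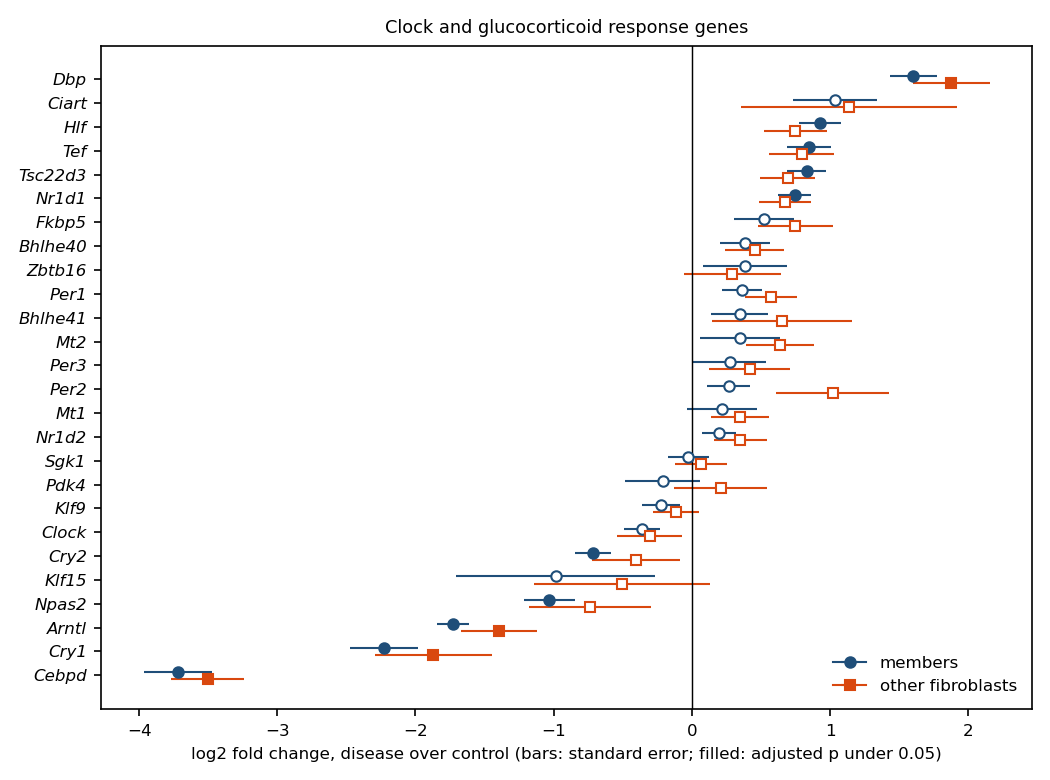
Log2 fold change, disease over control (horizontal axis), of the 26 clock and glucocorticoid genes in members (circles) and other fibroblasts (squares). Bars are standard errors and filled symbols have an edgeR adjusted p under 0.05. Dbp lies at 1.6 and Cebpd at -3.72 in members.

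The other 5 named rises had log2 fold changes of 0.54 to 1.14, a range that spans those of Hlf, Tef, Tsc22d3 and Nr1d1. Wisp2, a matricellular Wnt target, stood at 64.0 and 77.3 against 143, 198 and 124 CPM (1.14 ± 0.23), and Serpina3n, an inhibitor of granzyme B and other proteases, at 83.2 and 85.5 against 190, 142 and 135 CPM (0.88 ± 0.18). Pamr1 (0.66 ± 0.10), Fmo1 (0.60 ± 0.12) and Crip1 (0.54 ± 0.13) followed. Without control replicate 1 and without control replicate 2, none of the 5 kept its call (edgeR adjusted p from 0.072 to 0.291). Without disease replicate 5 the values were 0.046 for Wisp2, 0.054 for Serpina3n, 0.060 for Pamr1, 0.125 for Fmo1 and 0.171 for Crip1. Without disease replicate 3, Wisp2 (0.054) and Fmo1 (0.053) lost theirs, and without disease replicate 4 Crip1 did (0.066).

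Immediate early genes, which tissue digestion and stress can induce, were called lower at 16.7%, near the 12.7% of all genes. Atf3 stood at 874 and 781 against 159, 171 and 178 CPM (-2.29 ± 0.11), and Socs3, a feedback inhibitor of cytokine signalling, at 252 and 233 against 110, 94.4 and 112 CPM (-1.20 ± 0.12). Both held without any single library (edgeR adjusted p up to 0.022). Jund (-1.66 ± 0.35) and Dusp1 (-1.01 ± 0.21) were each lost without 3 of the 5 libraries. Jund was lost without control replicate 2 or disease replicate 3 or 5, and Dusp1 without either control library or disease replicate 3 (edgeR adjusted p up to 0.204 and 0.152). Of 24 genes 0 were higher by edgeR, by DESeq2 and at an unadjusted p under 0.05, and 4 were lower. Fos stood at 4686 and 4525 against 4709, 4936 and 5201 CPM (edgeR adjusted p = 0.497).

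Interferon-gamma genes were high in disease replicate 4. With 0.344% of all genes called higher, a count of 0 in a list of this size is near the background. In the interferon-gamma list 34 of 41 genes lay above 0 with a median of 0.54, 0 were called higher by edgeR and by DESeq2 (1 at an unadjusted p under 0.05), and 3 were lower (Irf8, Socs1 and Socs3). Iigp1 stood at 296 and 129 CPM in control and 127, 707 and 230 CPM in disease libraries. Disease replicate 4 was the highest, disease replicate 3 lay just under the lower control library, and the groups overlapped. Without disease replicate 4, 20 of 41 lay above 0, the median was -0.01, and Iigp1 changed sign to -0.26. Irf8 (58.9 and 44.9 against 19.3, 20.9 and 16.7 CPM, -1.46 ± 0.17) and Socs1 (32.2 and 32.3 against 8.74, 10.0 and 8.02 CPM, -1.86 ± 0.14) were lower in every disease library. All 13 complement genes tested lay above 0, with a median of 0.55, and 0 were called by edgeR (3 at an unadjusted p under 0.05) and 1 by DESeq2. C3 stood at 882 and 669 against 829, 1477 and 893 CPM (0.46 ± 0.29, edgeR adjusted p = 0.355). Macrophage markers in members summed to 375 and 174 against 211, 379 and 328 CPM, and T cell markers to 42.7 and 6.53 against 8.55, 153 and 25.3 CPM, so disease replicate 4 was highest in these too. Their part in the interferon values was not tested.

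Whether the genotype acted differently in Pi16-positive and other fibroblasts was tested by the class by group term. In other fibroblasts alone, 32 of 9797 genes (0.327%) were higher and 859 (8.77%) lower, and groups did not overlap for 21.1% of genes upward and 23.1% downward. The test of the difference called 13 of 12434 genes (0.105%), 8 with a higher effect in members (0.0643%) and 5 with a lower one (0.0402%), and DESeq2 called 0, with 154 genes at an unadjusted p under 0.05. Of the 13, Mfap4, Has1 and Ccl5 belong to the lists, and Cd9 was chosen after its values were seen. Mfap4 stood at 464 and 473 against 696, 610 and 653 CPM in members, and at 214 and 170 against 512, 366 and 400 CPM in other fibroblasts. The fold change in members minus that in other fibroblasts was -0.65 ± 0.12 (edgeR adjusted p = 0.017), and without control replicate 2 the adjusted p was 0.448. Has1 stood at 107 and 83.9 against 67.0, 167 and 102 CPM in members, where the groups overlapped, and at 21.8 and 16 against 42.8, 85.0 and 33.2 CPM in other fibroblasts. Its difference was -1.26 ± 0.22 (edgeR adjusted p = 0.011), and 0.276, 0.070 and 0.217 without control replicate 1, control replicate 2 and disease replicate 4. Cd9, a tetraspanin, stood at 789 and 709 against 927, 1095 and 1056 CPM in members, and at 255 and 214 against 467, 475 and 444 CPM in other fibroblasts. Its difference of -0.53 ± 0.11 was called only with all 5 libraries (edgeR adjusted p = 0.038, and 0.067 to 0.323 without 1). Mfap4, Has1 and Cd9 thus differed less between the classes in disease than in control libraries.

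For Cd248 the difference between the classes was not called. Its fold change was -1.32 ± 0.12 in members and -0.72 ± 0.23 in other fibroblasts (edgeR adjusted p = 0.0988), where it stood at 32.2 and 34.5 against 16.7, 20.6 and 23 CPM. The difference was -0.57 ± 0.20 (edgeR adjusted p = 0.788). Smoc2 (-1.46 ± 0.15), Htra3 (-1.54 ± 0.17), Cxcl12 (-1.43 ± 0.30) and Cxcl14 (-2.34 ± 0.19) were lower in other fibroblasts as well, and Wisp2 (1.24 ± 0.20) was higher. There the Cxcl12 call was lost without control replicate 1, control replicate 2 or disease replicate 5 (edgeR adjusted p = 0.158, 0.160 and 0.129), and that of Wisp2 without control replicate 1 or 2 (0.069 and 0.099).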

How the data were processed

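Per the file headers, Cell Ranger 3.1.0 wrote the authors' deposited tables of raw UMI counts, which give a whole number for each gene and barcode. The submitters' processing notes name Cell Ranger 3, Seurat 3 and the builds GRCh38 and mm10. The rule by which the authors called cells is not given in the sources used here. The members, lists and named genes were chosen with earlier results of these data known.

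Barcodes were gated on raw counts, and counts were summed per library and class. Sums went into edgeR 4.0.16 (R 4.3.3), with quasi-likelihood tests after filterByExpr and TMM scaling, Benjamini-Hochberg adjustment and a threshold of 0.05. Each standard error (SE) is the fitted change on the log2 scale divided by the root of its F value. The 13 genes of the rule stayed in library sizes and out of tests. The fits were tested on simulated data. Named genes are those of the lists, plus the 10 largest rises and falls per fit past the threshold, with average expression of 5 or more on the log2 CPM scale and every library in 1 direction. Mitochondrial, ribosomal, sex-linked and unnamed genes were counted and not named. Levels of rule genes and of fits use TMM library sizes, and marker sums, threshold groups and bins use plain totals. Scrublet (scanpy 1.11.5) doublets were kept, and left out as an alternative. DESeq2 1.42.0 was another alternative. Endothelial barcodes had at least 3 UMIs of endothelial genes and macrophages at least 5 of macrophage genes. Intervals for shares are 95% Wilson intervals. With 2 and 3 libraries, the exact permutation test has 10 splits.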

Additional observations from a re-analysis of the deposited data

Results flagged for a closer look

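The test of whether the genotype effect differed between Pi16-positive and other fibroblasts called 13 genes, and each is given as the log2 fold change in members minus that in other fibroblasts. Of these, 3 are described above: Has1 (-1.26), Mfap4 (-0.65) and Cd9 (-0.53). The other 10 are given because the test called them, and among them Ccl5 belongs to the interferon-gamma list.

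Haemoglobin genes gave the values Hbb-bt 7.06, Hbb-bs 5.82, Hba-a2 6.50 and Hba-a1 6.48. Hbb-bs had 572 UMIs in other fibroblasts of control replicate 1 and 1932 UMIs in members of disease replicate 3, against 138 or fewer in every other sum. Fibroblasts are not known to make haemoglobin, and the part of red cell RNA in these values was not tested. Immunoglobulin segments gave Ighv8-8 -12.68 and Igkv19-93 -11.76. Ighv8-8 had 34 UMIs in other fibroblasts of disease replicate 3 and 0 in the other fibroblasts of every other library, and such fitted values are no measure of size. Genes of cytotoxic T cells gave Ccl5 1.53 and Gzma 2.93. Over all sums Ccl5 had 5664 UMIs and Has1 4353. Ccl5 had 2142 UMIs in members of disease replicate 4, where T cell markers were highest, and 5 in those of control replicate 2. Gm29773 gave 9.09 and Dlk1 6.04, from 110 and 68 UMIs over all 10 sums.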

How the results depend on the processing

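No paired analysis of the genotypes was possible because the labels give no pairing of control and disease libraries. The fit of members against other fibroblasts has the library as a block, and without the replicate block it called 245 genes higher and 347 lower in place of 1885 and 1726. The same fit gave 763 and 834 with the gate on cells thinned to 2000 UMIs, 773 and 791 with cells thinned to 1000 UMIs, 1103 and 1033 at a mitochondrial limit of 5%, 873 and 984 for cells with at least 8 UMIs of the 3 genes per 2000, and 942 lower with DESeq2, which moved the median of all genes to -0.14. The share of calls that were higher was 52.2% in that fit, and 63.3% with every gene counted at least once and 41.4% without the block. Col15a1 turned to -0.020, -0.013 and -0.40 under the 2 thinnings and the limit of 8 UMIs, and ranged from -0.0089 to 0.059 without 1 library. For the genotype in members, 28 genes were higher with every counted gene, 105 with DESeq2 and 171 with the GC trend removed, and 3 to 74 without 1 library. Genes lower numbered 953 after thinning to 1000 UMIs, 548 at 8 UMIs per 2000, and 808 to 1604 without 1 library. Without 1 library Has1 ranged from -0.21 to 0.45 and Iigp1 from -0.26 to 1.46. In other fibroblasts, where 32 genes were higher and 859 lower, 54 were higher with every counted gene, 21 without the Postn and interferon limits, 12 after thinning to 1000 UMIs, 20 at 5%, 82 with the GC trend removed and 2 to 76 without 1 library. There, 341 were lower after thinning and 310 to 996 without 1 library. The difference between the classes, with 8 genes higher and 5 lower, gave 21 and 13 with every counted gene, 0 and 0 with DESeq2, 0 higher with the thinned gate, 1 lower after thinning to 1000 UMIs, 3 lower without Scrublet doublets, and 0 and 1 at 8 UMIs per 2000. Without 1 library it gave 0 to 21 higher and 0 to 9 lower. The difference in the share of members turned to -2.39 percentage points over the gate without the Postn and interferon limits and to -2.14 over all barcodes. Neither sign was stable without 1 library. The first ranged from -6.10 without disease replicate 3 to 2.15 without disease replicate 4, and the second from -5.31 to 1.04. The limit of 8 UMIs per 2000 and the GC trend were chosen after seeing the data. The causes were not tested.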
